A study of Mus musculus with 2 samples.

Results

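The genes described here encode the subunits, and some assembly factors, of the mitochondrial respiratory chain and ATP synthase. They were taken by symbol: nuclear genes whose names start with Ndufa, Ndufb, Ndufc, Ndufs or Ndufv, Uqcr, Cox4 to Cox8 or Atp5, together with Sdha to Sdhd, and genes of mitochondrial DNA whose names start with mt-Nd, mt-Co, mt-Atp or mt-Cytb. The rule found 110 of the 33696 genes in the count tables, 97 of them nuclear and 13 mitochondrial. They were chosen by name and not by level.

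Oxidative phosphorylation is carried out by enzyme complexes in the inner mitochondrial membrane. Complex I (NADH dehydrogenase) and complex II (succinate dehydrogenase) feed electrons to ubiquinone, complex III (cytochrome bc1) passes them to cytochrome c, complex IV (cytochrome c oxidase) reduces oxygen, and complex V (ATP synthase) uses the proton gradient to make ATP. Complexes I, III, IV and V are built from subunits of both genomes, with the catalytic membrane core of I, III and IV encoded by mitochondrial DNA, whereas complex II is wholly nuclear. The 97 nuclear genes fell into complex I (47 genes: 7 core subunits, 30 accessory subunits, 8 assembly factors and 2 related gene copies), complex II (4), complex III (8), complex IV (21, of which 8 are tissue-restricted isoforms) and complex V (17). The 13 mitochondrial genes comprised 7 of complex I, 1 of complex III, 3 of complex IV and 2 of complex V.

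The study sorted live Podoplanin-positive stromal cells, negative for the leukocyte marker CD45, the endothelial marker CD31 and the epithelial marker EpCAM, from whole mouse colon. Mice were 6 months old. The control group carried the floxed Il10ra allele alone (Il10ra ff), and the other group carried the same allele with Pdgfra-cre, a recombinase driven by the promoter of a fibroblast receptor gene (called Cre below). Il10ra encodes the ligand-binding chain of the interleukin-10 receptor, and the comparison asks what its loss from Pdgfra-expressing cells does to the colon stroma. Both groups were floxed, and no group had Cre without the floxed allele. The series describes 2 mice per genotype, and each genotype gave 1 droplet library of 5' transcript ends, so the mice were not told apart and no test between genotypes was possible. Strain and sex are not given in the sources used here. All intervals below are 95% intervals that cover counting error only, exact Poisson for a level and exact binomial for a ratio of levels. They say nothing of the spread between mice.

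The control library held 11380 cell barcodes and 76570611 transcript counts (unique molecular identifiers, UMIs), and the Cre library 8627 barcodes and 66845139 UMIs. After filtering, 10657 and 8302 cells were kept, of which 9562 (89.7%) and 7661 (92.3%) carried fibroblast markers. The libraries shared 115 barcode sequences. Il10ra gave 1 UMI in the control and 5 UMIs in the Cre fibroblast-gated cells, so the deletion could not be checked from these counts, while Pdgfra stood at 361 and 349 counts per 1000000 UMIs (CPM). Fibroblast-gated cells were split by markers into 4 classes, subepithelial (Sox6, Bmp3 and others), lamina propria (Edil3, Adamdec1 and others), Pi16 adventitial (Pi16, Dpp4 and others) and trophocyte (Grem1, Ackr4 and others), and a remainder with no class. The mix differed between libraries: the subepithelial class had 1462 control and 510 Cre cells, and the trophocyte class 985 and 2274. The median depth per fibroblast-gated cell was 6640.5 UMIs for control and 7577 UMIs for Cre cells.

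Of the 110 genes, 108 gave at least 1 UMI in fibroblast-gated cells and 98 reached a mean of 10 CPM over both libraries, the level from which a gene was called measured. These were 85 nuclear and all 13 mitochondrial genes. The 12 others were Cox4i2, Cox6a2, Cox7a1, Cox7b2, Cox8b, Cox8c and Ndufa4l2, which are isoforms or relatives known from particular tissues, the assembly factors Ndufaf1 and Ndufaf6, and the gene copies Cox5b-ps, Ndufb4b and Ndufb11b. Reads of such near-identical copies and their parent genes may have been split in the counting, and the same holds for the overlapping reading frames of mt-Atp8 with mt-Atp6 and of mt-Nd4l with mt-Nd4.

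In all fibroblast-gated cells together, the nuclear genes were slightly lower and the mitochondrial genes slightly higher in the Cre library. The nuclear genes summed to 15709 CPM in control and 14495 CPM in Cre cells, a ratio of 0.923 (0.920 to 0.925). The mitochondrial genes summed to 12532 CPM and 13023 CPM, a ratio of 1.04. The mitochondrial sum per nuclear sum was thus 0.798 in control and 0.898 in Cre cells. None of the 98 differed by 1.5-fold or more, whereas among all 9033 measured genes 3.8% were past that fold toward the Cre library and 3.14% toward the control. Of the 85 nuclear genes 73 lay below a log2 ratio of 0, with a median of -0.11 against -0.05 over all measured genes, and of the 13 mitochondrial genes 11 lay above 0, with a median of 0.05.

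The lower nuclear level ran through every complex. Complex I stood at 4953 CPM in control and 4679 CPM in Cre cells (ratio 0.945), complex II at 313 and 287 CPM (0.918), and complex III at 1424 and 1312 CPM (0.921). Complex IV stood at 4387 and 4004 CPM (0.913) and complex V at 4633 and 4214 CPM (0.910). The 5 ratios lay within a narrow range, lowest for ATP synthase and highest for complex I. On the mitochondrial side the complex I genes summed to 2797 CPM in control and 2793 CPM in Cre cells (0.999), whereas those of complex III (1771 and 1855 CPM), complex IV (5665 and 5965 CPM) and complex V (2299 and 2410 CPM) each had a ratio of 1.05.

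**Figure D1:**
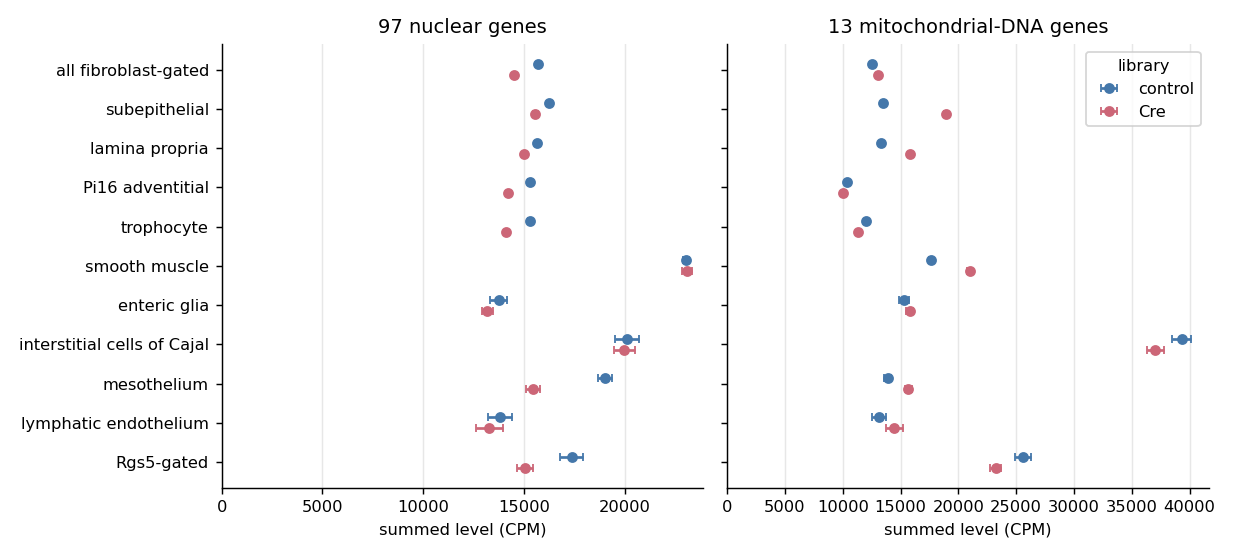
Summed level of the nuclear genes (left) and the mitochondrial genes (right) in CPM, by cell class and library. Points are sums over the cells of a library and bars are exact 95% Poisson intervals. The interstitial cells of Cajal stand furthest right for the mitochondrial genes at 39306 and 37034 CPM, and the subepithelial class shows the widest gap between libraries among the fibroblast classes, 13514 against 18911 CPM.

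Among the single measured nuclear genes, the furthest toward the control were 3 subunits of complexes III and IV, 1 of complex I and 1 of ATP synthase. Cox5a, an accessory subunit around the cytochrome c oxidase core, stood at 154 CPM in control and 119 CPM in Cre cells (ratio 0.776, 0.752 to 0.799). Cox6a1, the common form of another oxidase subunit, stood at 265 and 214 CPM (0.807). Ndufb6, in the membrane arm of complex I, stood at 128 and 103 CPM (0.810). Each of these differences exceeded counting error and fell short of 1.5-fold. Atp5g3, one of the genes for the rotating c-ring of ATP synthase, stood at 418 and 340 CPM (0.813), and Uqcrq, an accessory subunit of complex III, at 162 and 133 CPM (0.820).

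Few nuclear genes were higher in the Cre library. Cox6b2, a form of the oxidase subunit 6B best known from testis, stood at 51.0 CPM in control and 63.0 CPM in Cre cells (ratio 1.23, 1.18 to 1.29). Ndufa3, an accessory subunit of complex I, stood at 105 and 116 CPM (1.11). Cox7a2l, a factor linked to supercomplexes of complexes III and IV, stood at 248 and 274 CPM (1.11). Atp5mpl, a small membrane subunit of ATP synthase, stood at 142 and 151 CPM (1.06), and Ndufb1 of complex I at 93.3 and 97.7 CPM (1.05). These 5 were the highest of the 85 nuclear ratios, so the nuclear genes spanned 0.776 to 1.23.

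The nuclear genes with the most counts in each complex lay inside that span. Cox4i1, the regulatory subunit of cytochrome c oxidase, stood at 766 CPM in control and 672 CPM in Cre cells (0.877), and Cox8a, its smallest membrane subunit, at 661 and 592 CPM (0.895). In ATP synthase, Atp5e, the epsilon subunit of the F1 head, stood at 493 and 437 CPM (0.885), with Atp5g3 as the other gene of most counts. In complex I, Ndufa13, also known as GRIM-19, stood at 291 and 283 CPM (0.972) and Ndufa6 at 272 and 281 CPM (1.04). Complex I thus kept closer to equality at its strongest genes than complexes IV and V did. In complex III, the hinge protein gene Uqcrh stood at 436 and 425 CPM (0.973) and Uqcrb at 212 and 198 CPM (0.934). In complex II, the iron-sulfur subunit gene Sdhb stood at 113 and 102 CPM (0.907) and the membrane anchor Sdhd at 72.9 and 65.1 CPM (0.894).

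The 13 mitochondrial genes were close to equal in the pooled cells. mt-Co3, a core subunit of cytochrome c oxidase, differed most, with 1518 CPM in control and 1692 CPM in Cre cells (1.11). mt-Co1, which holds the oxygen-reducing site, stood at 2352 and 2433 CPM (1.03), and mt-Co2, which takes electrons from cytochrome c, at 1795 and 1839 CPM (1.02). mt-Cytb, the only mitochondrial subunit of complex III, stood at 1771 and 1855 CPM (1.05). The oxidase and cytochrome b genes were therefore all on the side of the Cre library. The ATP synthase genes mt-Atp8 and mt-Atp6 stood at 1892 and 1978 CPM (1.05) and at 406 and 433 CPM (1.07). Among the complex I genes, mt-Nd1 (699 and 670 CPM, 0.958) and mt-Nd2 (542 and 532 CPM, 0.982) were lower in the Cre library. The other complex I genes, mt-Nd4l, mt-Nd4, mt-Nd5, mt-Nd3 and mt-Nd6, had ratios of 1.01, 1.04, 1.04, 1.0 and 1.09.

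The pooled values mixed classes whose mitochondrial sums had ratios above and below 1. In subepithelial fibroblasts, which line the epithelium, the mitochondrial genes summed to 13514 CPM in control and 18911 CPM in Cre cells, a ratio of 1.40 (1.39 to 1.41). In lamina propria fibroblasts they summed to 13290 and 15804 CPM, a ratio of 1.19 (1.18 to 1.20). In Pi16 adventitial fibroblasts of the outer wall they summed to 10392 and 10061 CPM (0.968), and in trophocytes, the Grem1 and Ackr4 fibroblasts below the crypts, to 12021 and 11331 CPM (0.943). The ratios were thus highest in the subepithelial and lamina propria classes. The 2 ratios below 1 did not hold at matched depth: the Pi16 adventitial class was higher in the Cre library in 3 of 3 bands of UMIs per cell and trophocytes in 2 of 3, with the values given with the depth bands. With the 4 classes weighted alike, the log2 ratio of the mitochondrial sum was 0.19, against 0.06 over the pooled cells.

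The nuclear genes did not divide the classes in that way. Their sum was 16266 CPM in control and 15569 CPM in Cre cells in the subepithelial class (0.957), 15653 and 15018 CPM in the lamina propria class (0.959), 15280 and 14225 CPM in the Pi16 adventitial class (0.931), and 15302 and 14133 CPM in trophocytes (0.924). All 4 ratios lay below 1 over all depths, but among subepithelial cells of 1000 to 5000 UMIs the sums were 15611 and 15810 CPM, on the other side. The mitochondrial sum per nuclear sum therefore stood at 0.831 in control and 1.21 in Cre cells in the subepithelial class, and at 0.849 and 1.05 in the lamina propria class. It stood at 0.680 and 0.707 in the Pi16 adventitial class and at 0.786 and 0.802 in trophocytes. In the control library the 4 classes had lain between 0.680 and 0.849, and in the Cre library they lay between 0.707 and 1.21. The fibroblast-gated cells of no class had 13009 and 13511 CPM of mitochondrial genes (1.04) and 16025 and 14336 CPM of nuclear genes (0.895).

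In the subepithelial class all 13 mitochondrial genes were higher in the Cre library, with a median log2 ratio of 0.48 against 0.06 over all measured genes. mt-Cytb stood at 2048 CPM in control and 3195 CPM in Cre cells (1.56, 1.53 to 1.6) and was the only one of the 99 measured genes past 1.5-fold higher, where 5.2% of all measured genes were, and none was past 1.5-fold lower, where 3.85% were. mt-Co3 stood at 1926 and 2877 CPM (1.49) and mt-Nd5, in the proton-pumping arm of complex I, at 220 and 329 CPM (1.49). The smallest ratio was that of mt-Nd1, at 731 and 890 CPM (1.22, 1.17 to 1.27), so the mitochondrial genes moved together but not by the same factor. By complex, the mitochondrial genes of complex III had a ratio of 1.56, those of complex V 1.40, those of complex I 1.37 and those of complex IV 1.36.

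The nuclear genes of the same subepithelial cells stayed near equality, with 53 of 86 below 0 and a median log2 ratio of -0.03. Nuclear complex I genes stood at 5252 and 5290 CPM (1.01) and nuclear complex IV genes at 4415 and 4073 CPM (0.923). Among measured genes the lowest nuclear ratio was that of Ndufaf6, an assembly factor, at 14.8 and 10.3 CPM from 154 and 38 UMIs (0.696, 0.475 to 0.998). Cox4i2, under the level limit, differed more, at 14.6 and 4.33 CPM from 152 and 16 UMIs. The class is small in the Cre library and its smooth muscle marker list, 6 of 6 genes detected, summed to 171 CPM in control and 219 CPM in Cre cells. Its leukocyte list, 5 of 8 genes detected in each library, summed to 7.68 and 32.2 CPM, and the part of either in the mitochondrial difference was not tested. Acta2 and Tagln, contractile genes, were among the genes that led this class. Of the class's own markers, Sox6 (859 and 1173 CPM), Bmp3, Bmp5 and F3 were higher in the Cre library, and Bmp7, Wnt5a and Foxl1 lower. Malat1, a nuclear RNA, stood at 9624 and 11887 CPM, and was also higher in Cre lamina propria cells, Pi16 adventitial cells and trophocytes. Cytosolic ribosomal protein genes summed to 104612 and 98404 CPM. The part of these in the mitochondrial difference was not tested.

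In the lamina propria class all 13 mitochondrial genes were again higher in the Cre library, with a median log2 ratio of 0.22 against 0.03 over all measured genes. mt-Co3 stood apart from the rest, at 1611 CPM in control and 2291 CPM in Cre cells (1.42, 1.40 to 1.44), while the 12 others had ratios of 1.05 to 1.26. The lowest were mt-Nd1 at 732 and 770 CPM (1.05) and mt-Nd4l at 933 and 997 CPM (1.07). Of the 86 nuclear genes 55 lay below 0. Cox6b2 was the only measured gene past 1.5-fold higher, at 49.7 and 78.6 CPM (1.58, 1.46 to 1.72), where 4.98% of all measured genes were, and no gene was past 1.5-fold lower, where 3.37% were. Among the measured nuclear genes lowest in the Cre library were Cox5a at 145 and 117 CPM (0.805) and Atp5g3 at 410 and 332 CPM (0.809). The leukocyte marker list summed to 24.3 CPM in these control cells, with 5 of 8 genes detected, and to 63.5 CPM in the Cre cells, with 8 of 8. Its part was not tested.

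In the Pi16 adventitial class 12 of the 13 mitochondrial genes were lower in the Cre library, the exception being mt-Co3 at 1148 and 1179 CPM (1.03). In trophocytes 12 of 13 were lower, the exception being mt-Nd6, the only gene of this set encoded on the other strand of mitochondrial DNA, at 30.5 and 35.2 CPM from 189 and 695 UMIs (1.15, 0.981 to 1.36). No measured gene was past 1.5-fold in either class. In the Pi16 adventitial class 3.78% of all measured genes were past 1.5-fold higher and 2.2% lower, and in trophocytes 3.01% and 1.54%. Among nuclear genes of the Pi16 adventitial class, Cox5a stood at 165 CPM in control and 118 CPM in Cre cells (0.718, 0.672 to 0.767) and Cox6b2 at 32.4 and 43.4 CPM (1.34). Of the nuclear genes, 65 of 84 in the Pi16 adventitial class and 67 of 86 in trophocytes lay below 0. In the Pi16 adventitial class the median log2 ratio was -0.09 for mitochondrial and -0.10 for nuclear genes, against -0.04 over all measured genes. In trophocytes the medians were -0.08 and -0.10, against -0.03 over all measured genes.

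**Figure D2:**
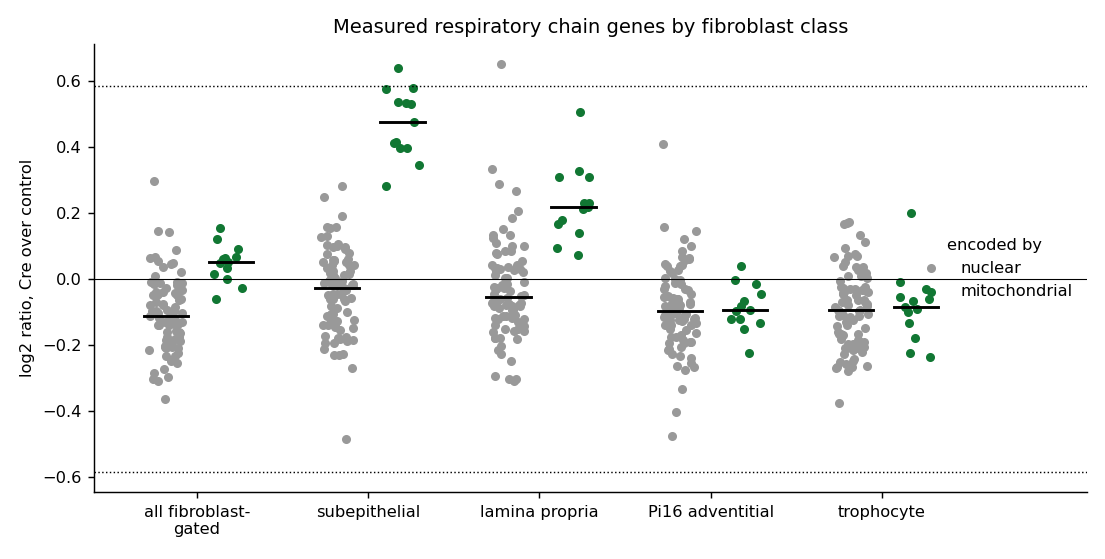
Log2 ratio of Cre over control for each measured gene in all fibroblast-gated cells and in 4 fibroblast classes. Grey points are nuclear genes, green points mitochondrial genes, black bars medians and dotted lines a 1.5-fold difference. The mitochondrial genes sit above the nuclear ones in the subepithelial (median 0.48) and lamina propria (0.22) classes, and level with them in the Pi16 adventitial (-0.09) and trophocyte (-0.08) classes.

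Sequencing depth per cell moved with the mitochondrial level and differed between the libraries, so the sums were also taken within bands of depth. Among subepithelial cells of 1000 to 5000 UMIs the mitochondrial sum was 19982 CPM in control and 24229 CPM in Cre cells. In cells of 5000 to 10000 UMIs it was 13219 and 19189 CPM, and in cells of over 10000 UMIs 11165 and 16227 CPM. The subepithelial difference was thus present in every band, and the lamina propria class behaved alike, with 21530 and 24542 CPM, 13394 and 16082 CPM, and 11149 and 13196 CPM. The Pi16 adventitial class, whose median depth was 6178 UMIs (control) and 8498.5 UMIs (Cre), had 15086 and 16693 CPM, 9931 and 10865 CPM, and 8459 and 8533 CPM. Trophocytes, with median depths of 6015 and 8315 UMIs, had 15521 and 16615 CPM, 11547 and 12362 CPM, and 9987 and 9739 CPM. In those 2 classes the lower pooled level of the Cre library therefore turned to a higher one in 3 and in 2 of the 3 bands. The nuclear sum hardly moved with depth, between 13751 and 16498 CPM over the same classes and bands.

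**Figure D3:**
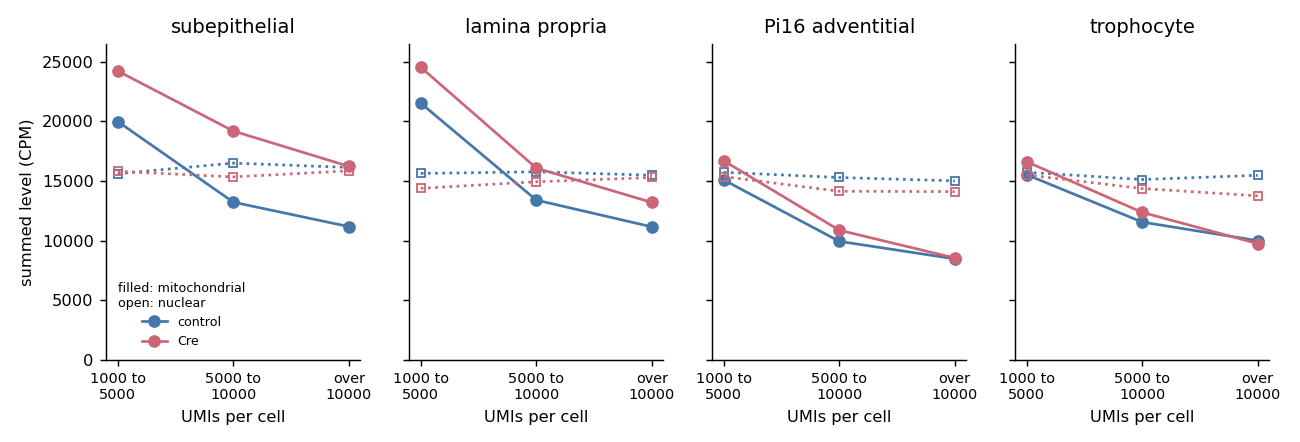
Summed level in CPM (vertical axis, from 0) of mitochondrial genes (filled points) and nuclear genes (open points) in 4 fibroblast classes, by UMIs per cell and library. The mitochondrial level falls with depth in both libraries, and in the subepithelial class the Cre library stays above the control in each band, for example 19189 against 13219 CPM at 5000 to 10000 UMIs.

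Across single cells the same order held. The median share of a cell's UMIs from the 13 mitochondrial genes was 1.31% in control and 1.77% in Cre subepithelial cells, and 1.29% and 1.5% in lamina propria cells. It was 1.01% and 0.943% in Pi16 adventitial cells and 1.14% and 1.05% in trophocytes. The spread between cells was wider than these differences: in control subepithelial cells 80% of the cells lay between 0.852% and 2.41%, and in Cre cells between 1.14% and 3.16%. A cap of 10% mitochondrial UMIs per cell removed 22 control and 21 Cre fibroblast-gated cells.

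The fibroblast classes also differed from one another in single nuclear genes, in both libraries. Cox7c, an accessory subunit of cytochrome c oxidase, stood at 824 CPM in control and 849 CPM in Cre lamina propria cells, against 499 and 434 CPM in the other fibroblast-gated cells. It was at 417 and 355 CPM in the subepithelial class, 412 and 396 CPM in the Pi16 adventitial class and 479 and 443 CPM in trophocytes. Lamina propria cells thus lay well above all 3 other classes for this subunit in each library. Cox6c, another oxidase subunit, had its own pattern, with 678 and 630 CPM in the subepithelial class against 391 and 360 CPM in the remaining fibroblast-gated cells. The complex I core gene Ndufs8 (99.1 and 108 CPM against 67.5 and 61.9 CPM) was also higher in the subepithelial class. Cox6b2 was lowest among these classes in Pi16 adventitial cells, at 32.4 and 43.4 CPM. Among measured genes the highest ratio in trophocytes was that of Atp5j, the coupling factor 6 gene of ATP synthase, at 384 and 360 CPM against 328 and 307 CPM. For the mitochondrial genes together, the ratio to the other fibroblast-gated cells was 1.09 (control) and 1.5 (Cre) in the subepithelial class, and 1.09 and 1.31 in the lamina propria class. It was 0.792 and 0.731 in the Pi16 adventitial class and 0.955 and 0.820 in trophocytes.

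Other gated stromal classes were compared with the fibroblast-gated cells of the same library, and a gene was counted only when at least 1.5-fold apart on the same side in both libraries. The highest and lowest genes named for each class are likewise measured genes on the same side in both. Smooth muscle cells (703 control and 179 Cre cells) were high for both genomes. Their nuclear genes summed to 23050 and 23091 CPM, 1.47 and 1.59 times the fibroblast level, and their mitochondrial genes to 17595 and 20969 CPM, 1.40 and 1.61 times. Of 98 measured genes, 33 reached a 1.5-fold higher level (26 of 85 nuclear and 7 of 13 mitochondrial), where 12.8% of all measured genes were, and none was lower, where 10.7% were. The median nuclear log2 ratio was 0.49 in control and 0.60 in Cre cells, against 0.07 and 0.16 over all measured genes. By the mean log2 ratio of both libraries, the genes furthest up were Cox6c, Cox6a1 and Cox8a of cytochrome c oxidase. The complex I gene Ndufb9 followed closely, at 389 and 417 CPM against 190 and 166 CPM in fibroblast-gated cells. Cox6c stood at 1362 CPM in control and 1127 CPM in Cre smooth muscle cells against 437 and 376 CPM in fibroblast-gated cells. Cox6a1 stood at 569 and 533 CPM against 265 and 214 CPM, and Cox8a at 1370 and 1472 CPM against 661 and 592 CPM. Cox7a2l lay on the other side, at 190 and 222 CPM against 248 and 274 CPM. Next lowest were Ndufb4 at 15.6 and 18.1 CPM against 19.6 and 18.2 CPM and Ndufc2 at 178 and 142 CPM against 179 and 153 CPM. Ndufb4 in the Cre library (log2 ratio -0.0053) and Ndufc2 in the control (-0.0113) were close to equality.

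Interstitial cells of Cajal, the Kit-positive and Ano1-positive pacemaker cells of the gut wall, had the highest mitochondrial level of all classes in each library. The 35 control and 45 Cre cells summed to 39306 CPM (from 215998 UMIs) and 37034 CPM (from 286868 UMIs) of mitochondrial genes, 3.14 times (3.07 to 3.20) and 2.84 times (2.79 to 2.90) the fibroblast level. Their nuclear genes, at 20121 and 19978 CPM, were 1.28 and 1.38 times the fibroblast level, so the mitochondrial sum per nuclear sum was 1.95 and 1.85. All 13 mitochondrial genes passed 1.5-fold, and 21 of 88 nuclear genes did, where 25.3% of all measured genes were higher, so the nuclear share was near the background. Among the 21, Cox4i2 and Cox8b passed the level limit only through their level in interstitial cells. The median log2 ratio was 1.76 and 1.48 for mitochondrial genes and 0.45 and 0.54 for nuclear genes, against 0.30 and 0.41 over all measured genes. mt-Cytb stood at 6912 and 6724 CPM against 1771 and 1855 CPM in fibroblast-gated cells. The 1 gene past 1.5-fold lower, where 10.7% of all were, was Cox7a2l at 148 and 150 CPM against 248 and 274 CPM. Cox7c (426 and 425 CPM against 610 and 539 CPM) and Uqcrh (403 and 363 CPM against 436 and 425 CPM) were next lowest. The nuclear excess was smaller or turned in cells of 1000 to 5000 UMIs, where interstitial cells had 17304 CPM against 15816 CPM in control fibroblasts and 14134 CPM against 15127 CPM in Cre fibroblasts, from 10 and 11 interstitial cells, and where the mean log2 ratio was 0.016 against 0.41 over all depths. The mitochondrial difference was of like size in cells of 5000 to 10000 UMIs, at 40002 against 12213 CPM in the control and 36659 against 13992 CPM in the Cre library. The cap on mitochondrial UMIs removed 2 of 37 control and 2 of 47 Cre interstitial cells, so the levels given are of the cells below the cap. The nuclear RNA Malat1 stood at 17218 and 20159 CPM in interstitial cells against 6516 and 6721 CPM in fibroblast-gated cells. Enteric glia had 18162 and 20686 CPM of it. A link between Malat1 and the mitochondrial level was not tested.

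A small set of cells gated on Rgs5, Kcnj8, Abcc9, Higd1b and Cspg4 was meant to hold pericytes, but its levels went against that name. The pericyte gene Higd1b was nearly absent at 9.19 CPM in control and 2.49 CPM in Cre cells, and Pdgfra, a fibroblast gene, was high at 906 and 1097 CPM, so they are called Rgs5-gated cells (33 and 47 cells). Their mitochondrial genes summed to 25571 and 23236 CPM, 2.04 and 1.78 times the fibroblast level, and their nuclear genes to 17361 and 15044 CPM, 1.11 and 1.04 times. In this set 10 of 13 mitochondrial and 5 of 87 nuclear genes were at least 1.5-fold higher, where 13.1% of all measured genes were, and none lower, where 5.85% were. The 5 nuclear genes were Cox4i2, Cox8b, Ndufa4l2, Cox6b2 and Atp5j. Of these, Cox4i2, Cox8b and Ndufa4l2 passed the level limit only through their level in Rgs5-gated cells, so their place in the count was favoured by the limit. The excess over fibroblasts was therefore mostly mitochondrial, as in interstitial cells of Cajal, and the mitochondrial sum per nuclear sum was 1.47 and 1.54. Among measured genes lower in both libraries, the lowest were Cox7c at 414 and 348 CPM, Atp5e at 340 and 326 CPM and Ndufa8 at 59.8 and 74.6 CPM.

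Enteric glia, mesothelium and lymphatic endothelium lay nearer to fibroblasts. Enteric glia (69 and 114 cells) had nuclear sums of 13744 and 13180 CPM, 0.875 and 0.909 times the fibroblast level, and mitochondrial sums of 15288 and 15795 CPM, 1.22 and 1.21 times. Of their 98 genes past the level limit, 4 reached 1.5-fold on the higher side and 4 on the lower, where 20.5% and 13.7% of all measured genes did. The lowest were Cox6b2 (6.32 and 26.3 CPM, from 2 and 16 UMIs), Cox7a2l (79.0 and 75.7 CPM) and Atp5e (262 and 234 CPM). The highest were mt-Nd2 (891 and 810 CPM) and the near-identical pair Ndufb4 (34.7 and 34.6 CPM) and Ndufb4b (18.9 and 16.5 CPM, from 6 and 10 UMIs). Ndufb4b passed the level limit only through its level in glia.

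Mesothelial cells, which cover the outer surface of the colon, numbered 60 and 45. Their nuclear sums were 18996 and 15447 CPM, 1.21 and 1.07 times the fibroblast level, and their mitochondrial sums 13875 and 15678 CPM, 1.11 and 1.20 times. Of 100 measured genes 2 reached a 1.5-fold higher level, where 15.1% of all were, and 1 was lower, where 11.8% were. The lower gene was Cox7c at 346 and 324 CPM, followed by mt-Nd3 at 57.1 and 75.5 CPM and Ndufaf2 at 30.2 and 22.1 CPM. The 2 higher genes were Ndufb4b (15.1 and 20.3 CPM, from 9 and 11 UMIs) and Ndufaf3 (52.0 and 44.2 CPM, from 31 and 24 UMIs). Ndufb4b passed the level limit only through its level in mesothelium. By the mean log2 ratio of both libraries, Ndufb4b was followed by Ndufa4, a subunit of cytochrome c oxidase despite its name, at 638 and 398 CPM. Cox6b2 came next at 131 and 82.9 CPM. Neither Ndufa4 nor Cox6b2 was past 1.5-fold in the Cre library.

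Lymphatic endothelial cells, 44 and 43 cells of low depth (medians of 1957 and 2315 UMIs), had nuclear sums of 13803 and 13282 CPM, 0.879 and 0.916 times the fibroblast level, and mitochondrial sums of 13101 and 14454 CPM, 1.05 and 1.11 times. Of 99 measured genes 2 reached a 1.5-fold higher level, where 23.4% of all were, and 3 lower, where 12.1% were. Among the lowest were Cox6b2 (13.6 and 9.02 CPM, from 2 and 1 UMIs) and Ndufa4 (184 and 108 CPM). The highest were Ndufaf6 (20.5 and 27.1 CPM, from 3 UMIs in each library), mt-Nd6 (47.7 and 72.1 CPM) and Ndufs4 (109 and 117 CPM). Ndufaf6 passed the level limit only through its level in these cells. At this depth values of single genes were uncertain.

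**Figure D4:**
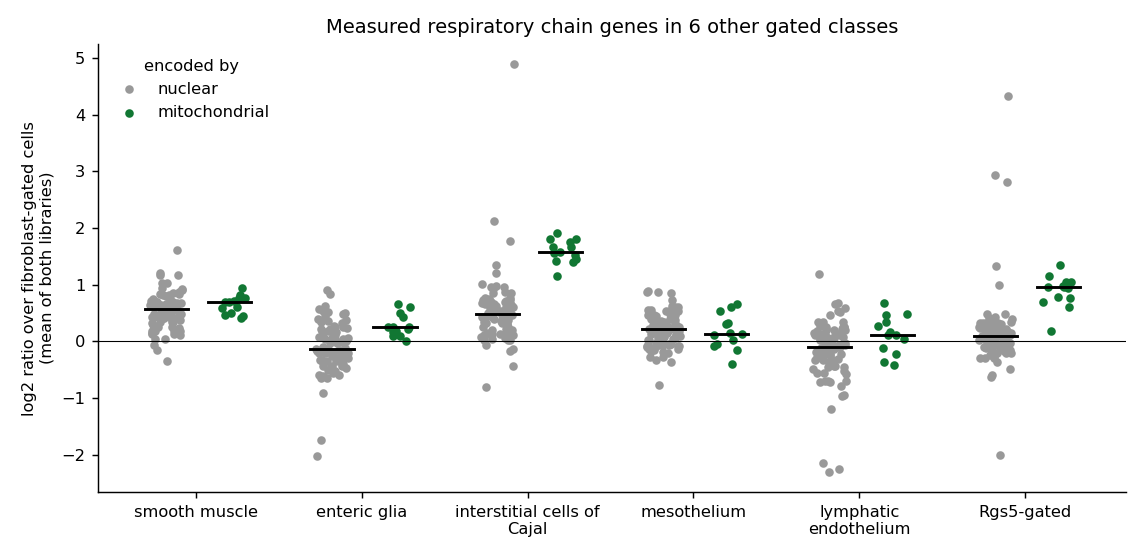
Log2 ratio of each measured gene over fibroblast-gated cells, as the mean of both libraries, in 6 other gated classes. Grey points are nuclear genes, green points mitochondrial genes and black bars medians. Both kinds lie above 0 in smooth muscle cells, while in interstitial cells of Cajal and Rgs5-gated cells the mitochondrial genes stand apart from most nuclear ones.

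Between genotypes, the mitochondrial sum per nuclear sum was higher in the Cre library beyond counting error in smooth muscle cells and mesothelium. It stood at 0.763 and 0.908 in smooth muscle cells, where the mitochondrial sum had a ratio of 1.19 and the nuclear sum of 1.0. It stood at 0.730 (0.710 to 0.751) and 1.01 (0.985 to 1.05) in mesothelium, where the nuclear sum had a ratio of 0.813. In enteric glia the intervals touched, at 1.11 (1.07 to 1.16) and 1.20 (1.16 to 1.23). The intervals overlapped in lymphatic endothelium (0.949, 0.891 to 1.01, and 1.09, 1.01 to 1.17), Rgs5-gated cells and interstitial cells of Cajal. Of the 10 named classes, all but the interstitial cells of Cajal had the larger value in the Cre library. Over these 10 classes the nuclear and mitochondrial sums had a Pearson r of 0.49 and a Spearman rho of 0.64 in the control library, and of 0.63 and 0.68 in the Cre library. Classes of 1 library share its depth and mice, so these are descriptions.

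Several oxidase subunits exist as a common form and a form found in particular tissues. Cox4i2 replaces Cox4i1 in lung and in oxygen-sensing and contractile cells, and Cox8b is a form known from heart, skeletal muscle and brown fat. Over the 20 profiles (10 classes in each library), 101 genes of the set were past the level limit. Their median standard deviation of log2 level was 0.378, against 0.615 over 9981 measured genes. The highest were those of Cox4i2 (2.387), Cox8b (2.264) and Cox6b2 (1.298). Cox4i2 and Cox8b, with medians of 1.34 and 1.17 CPM, passed the limit only through the few profiles where they were high. Their high rank was thus favoured by the limit itself, whereas Cox6b2 had a median of 63.9 CPM. The steadiest of the 101 were Ndufb5 (114 to 175 CPM), Uqcrh (290 to 481 CPM) and Cox6b1 (227 to 384 CPM). The start-site regions of 3 oxidase genes, 250 bases before to 50 after the start, are shown to set the common Cox8a and the restricted Cox8b side by side, with Cox6a1 as one of the genes lowest in the Cre library. Sequences are from RefSeq on GRCm38.p6, 5' to 3' on the gene's strand, which is the minus strand for all 3. Capitals mark matches to CCGGAAGT (the core bound by GABPA, also called NRF2) in Cox8a, TATAAA in Cox8b and GCGCATGC (the core bound by NRF1) in Cox6a1. The promoters of Cox4i1, Cox4i2 and Cox6c are not shown.
Cox8a: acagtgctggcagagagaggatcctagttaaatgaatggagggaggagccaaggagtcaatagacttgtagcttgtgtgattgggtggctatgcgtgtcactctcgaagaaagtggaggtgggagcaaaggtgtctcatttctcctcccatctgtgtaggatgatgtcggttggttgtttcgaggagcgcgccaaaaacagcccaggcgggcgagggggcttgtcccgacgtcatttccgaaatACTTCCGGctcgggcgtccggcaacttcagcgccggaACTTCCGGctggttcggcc
Cox8b: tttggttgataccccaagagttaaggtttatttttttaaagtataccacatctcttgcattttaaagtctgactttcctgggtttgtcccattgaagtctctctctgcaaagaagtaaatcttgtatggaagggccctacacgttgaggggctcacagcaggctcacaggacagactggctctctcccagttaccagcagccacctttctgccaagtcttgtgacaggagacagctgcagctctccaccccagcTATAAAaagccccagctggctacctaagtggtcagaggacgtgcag
Cox6a1: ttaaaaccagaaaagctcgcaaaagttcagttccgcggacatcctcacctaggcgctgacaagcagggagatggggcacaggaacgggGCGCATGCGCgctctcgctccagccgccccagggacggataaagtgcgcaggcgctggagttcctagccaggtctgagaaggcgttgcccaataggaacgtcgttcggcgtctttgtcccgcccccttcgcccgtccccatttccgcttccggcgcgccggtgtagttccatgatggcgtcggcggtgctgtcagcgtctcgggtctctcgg

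The Cox8a region lies at chr19:7217567-7217866 and holds the GABPA letters in 2 places, both on the other strand, the first at base -6 from the start. The Cox8b region lies at chr7:140900397-140900696 and holds TATAAA once, at base 5 on the gene's strand, within the first bases of the annotated transcript. The Cox6a1 region lies at chr5:115348909-115349208, with the NRF1 letters on both strands at bases -162 and -160, as 1 overlapping stretch. Regions were found for 78 of the 97 nuclear genes, and each motif was searched on both strands. A gene was counted when any of its start regions held the letters, and the background was all 27025 genes with such regions. GCGCATGC was in 12 of the 78 (15.4%) and in 3.0% of the 27025 genes, and AAGATGGC, the core of YY1, in 11 (14.1%) and 3.2%. CCGGAAGT was in 5 (6.4%) and 4.3%, and TATAAA in 8 (10.3%) and 15.7%. A match says that the letters are present and nothing of binding.

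Cox4i2 fell under the 10 CPM limit in fibroblast-gated cells but differed between the libraries. Control cells gave 362 UMIs (281 of 9562 cells) and Cre cells 34 UMIs (22 of 7661 cells), or 5.52 CPM (4.96 to 6.12) and 0.554 CPM (0.384 to 0.774), a ratio of 0.1 (0.0685 to 0.143). In lamina propria cells it gave 169 and 6 UMIs (7.57 and 0.386 CPM), and in subepithelial cells 152 and 16 UMIs (14.6 and 4.33 CPM). Cox4i2 was thus lower in the Cre library in both mucosal classes. In Pi16 adventitial cells it gave 7 and 1 UMIs, and in fibroblast-gated cells of no class 34 and 1. Trophocytes gave 0 UMIs in 985 control cells, which allows up to 0.484 CPM, and 10 UMIs in 4 of 2274 Cre cells (0.506 CPM). The share of cells with a UMI was 2.94% in control and 0.287% in Cre fibroblast-gated cells. In smooth muscle cells of like depth (medians of 6634 and 6413 UMIs) it was 0.996% and 0.559%, from 9 and 1 UMIs. With 1 UMI, the Cre smooth muscle share was too uncertain to judge whether the Cre fibroblast share lay above it. The summed markers of interstitial cells of Cajal in the fibroblast gate were 37.7 CPM in control and 25.5 CPM in Cre cells (5 of 5 detected in each), and those of the pericyte list 63.7 and 84.6 CPM (4 and 5 of 5 detected). Their part in the Cox4i2 difference was not tested.

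In interstitial cells of Cajal Cox4i2 stood at 92.6 CPM in control and 94.1 CPM in Cre cells, from 20 and 27 UMIs in 7 and 11 cells. These 2 levels were equal within counting error and far above those of fibroblast-gated cells. In Rgs5-gated cells it gave 31 UMIs in 6 of 33 control cells (142 CPM) and 1 UMI in 47 Cre cells (2.49 CPM). This gate differed in other genes too: Notch3 stood at 50.6 CPM in control and 2.49 CPM in Cre cells, Kit at 110 and 7.46 CPM, and Myh11, a smooth muscle gene, at 179 and 4.97 CPM. Their part was not tested. The common form Cox4i1 ranged in the 10 classes from 541 to 1187 CPM and was lower in the Cre library in each of the 10 but lymphatic endothelium (586 and 595 CPM).

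Cox8b went the other way in the pooled fibroblast-gated cells, with 172 UMIs (123 cells) in the control library and 380 UMIs (242 cells) in the other, or 2.62 and 6.19 CPM (ratio 2.36, 1.97 to 2.84). Most of it came from trophocytes, at 8.71 and 10.4 CPM, and from cells of no class, at 4.51 and 13.5 CPM. The Pi16 adventitial class had 1.92 and 1.95 CPM, the subepithelial class 3.07 and 1.90 CPM, and the lamina propria class 2 and 7 UMIs. The pooled fold was larger than that in trophocytes, the Pi16 adventitial and the subepithelial class. It was smaller than that in cells of no class, and in the lamina propria class, where both levels rested on few UMIs. The trophocyte class had 985 control and 2274 Cre cells, and the part of the class mix was not tested. In Rgs5-gated cells Cox8b stood at 73.5 CPM from 16 UMIs in the control and 142 CPM from 57 UMIs in the Cre library, and in interstitial cells of Cajal at 18.5 and 24.4 CPM from 4 and 7 UMIs. It was close to absent in smooth muscle cells, with 1 UMI in 703 control cells and 0 in 179 Cre cells, which allows up to 2.37 CPM.

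Ndufa4l2, a relative of Ndufa4 known from hypoxic cells and pericytes, stood at 4.80 CPM in control and 6.62 CPM in Cre fibroblast-gated cells (1.38). It was highest among the fibroblast classes in trophocytes (9.52 and 10.8 CPM) and lower in the Cre library in lamina propria cells (3.22 and 0.772 CPM, from 72 and 12 UMIs). In Rgs5-gated cells it stood at 82.7 and 29.8 CPM, from 18 and 12 UMIs. Ndufa4 itself stood at 285 and 266 CPM in fibroblast-gated cells, and was at 589 and 535 CPM in smooth muscle cells and 532 and 512 CPM in interstitial cells of Cajal. Cox7a1, a muscle and brown fat form, gave 77 and 32 UMIs in fibroblast-gated cells (1.17 and 0.521 CPM). Its highest levels were in enteric glia (28.4 and 8.23 CPM, from 9 and 5 UMIs) and smooth muscle cells (9.91 and 11.8 CPM). Its common partner Cox7a2 was at 224 and 222 CPM in fibroblast-gated cells and at 367 and 389 CPM in smooth muscle cells. Cox6a2, the heart and skeletal muscle form of Cox6a1, gave 2 and 1 UMIs in fibroblast-gated cells. Cox6b2 ranged from 6.32 CPM in control enteric glia to 206 CPM in Cre interstitial cells of Cajal.

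**Figure D5:**
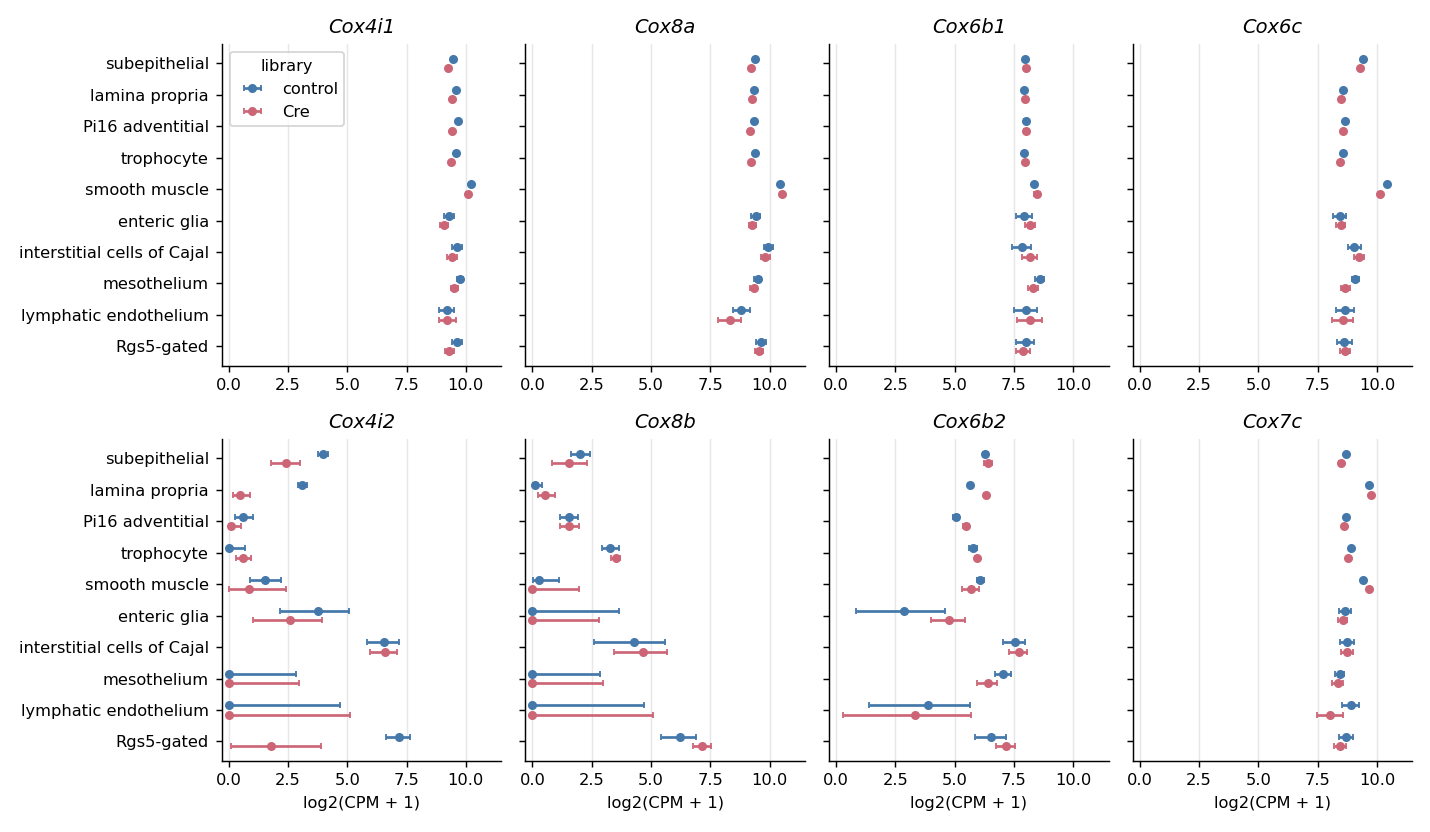
Levels of 8 cytochrome c oxidase subunit genes as log2(CPM + 1), by class and library, with exact 95% Poisson intervals. Cox4i1, Cox8a and Cox6b1 are present in every class, whereas Cox4i2 and Cox8b reach 10 CPM in a few classes, with Cox4i2 at 92.6 and 94.1 CPM in interstitial cells of Cajal.

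Genes that act around the respiratory chain were read from 6 lists in fibroblast-gated cells. Of 40 measured assembly factors and cytochrome c (of 51, 8 of them also in the set above) none was past 1.5-fold in either direction, and the median log2 ratio was -0.09. Uqcc2, needed for cytochrome b, stood at 151 and 124 CPM (0.819) and Cmc2 at 18.5 and 13.2 CPM (0.715), against Cox17, a copper carrier for the oxidase, at 61.4 and 70.1 CPM (1.14) and Cmc1 at 33.8 and 37.7 CPM (1.12). Cycs, cytochrome c itself, stood at 156 and 142 CPM (0.909). None of 17 measured genes of the tricarboxylic acid cycle (of 18) was past 1.5-fold, with a median of -0.09. Idh2 stood lowest at 68.0 and 51.1 CPM (0.752), then Ogdh at 70.2 and 56.4 CPM (0.804), with Suclg2 (32.2 and 33.9 CPM) and Idh3b (86.0 and 91.2 CPM) highest. Both medians lay below that of all measured genes (-0.05), and that of the assembly list turned to 0.05 in cells of 1000 to 5000 UMIs.

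None of the 18 measured genes of mitochondrial gene expression (of 27), which copy, transcribe and stabilise mitochondrial DNA and RNA, was past 1.5-fold either, with a median of -0.08. Tfam, which packages mitochondrial DNA, stood at 17.4 and 17.0 CPM (0.978), and Ppargc1a, the coactivator of mitochondrial biogenesis, at 1.80 and 1.39 CPM, too low to be measured. Slirp, which stabilises mitochondrial transcripts, stood at 44.7 and 48.7 CPM (1.09) and Yy1 at 82.1 and 83.9 CPM (1.02), against Polg2, a subunit of the mitochondrial DNA polymerase, at 45.8 and 33.3 CPM (0.728) and Esrra at 12.2 and 9.63 CPM (0.790). In the subepithelial class, where the mitochondrial sum differed most, this list had a median of 0.03 over 18 measured genes. The 80 measured cytosolic ribosomal protein genes (of 84), taken as a reference outside mitochondria, had a median of 0.02 with none past 1.5-fold. Their extremes were Rpl22l1 (550 and 654 CPM) and Rpl38 (910 and 1068 CPM), Rps27l (220 and 192 CPM) and Rps14 (1887 and 1771 CPM).

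The 2 lists linked to stress held a few genes past 1.5-fold, where 3.8% of all measured genes were higher and 3.14% lower. Of 26 measured genes of glycolysis and hypoxia (of 30), 2 were lower in the Cre library and none higher, with a median of -0.20. Slc16a3, a lactate exporter, stood at 15.2 and 6.34 CPM (0.418), and the angiogenic factor Vegfa at 84.1 and 52.0 CPM (0.618), while Ldhb (23.0 and 29.1 CPM) and Hk2 (102 and 118 CPM) were highest. By class, the median of this list was -0.19 in the subepithelial, -0.24 in the lamina propria and -0.12 in the Pi16 adventitial class. In trophocytes it was -0.04, near the -0.03 of all measured genes there. Of 24 measured genes of mitochondrial redox and inflammation (of 29), 1 was higher and 2 lower, and the higher share was near that of all genes. Sod2, the superoxide dismutase of the mitochondrial matrix and a gene induced by inflammatory signals, stood at 103 and 175 CPM (1.70, 1.65 to 1.76). The uncoupling protein relative Ucp2 stood at 27.1 and 12.7 CPM (0.470) and the stress cytokine Gdf15 at 46.6 and 25.2 CPM (0.540). Sod2 was higher in the Cre library in each fibroblast class: 121 and 152 CPM in the subepithelial, 103 and 209 CPM in the lamina propria, 85.2 and 140 CPM in the Pi16 adventitial class and 103 and 171 CPM in trophocytes. Hspe1, the mitochondrial chaperonin cofactor, was second in the list at 423 and 475 CPM. AA467197, an oxidase-associated transcript (NMES1), stood at 1.05 and 1.32 CPM, below the limit.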

How the data were processed

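Live Podoplanin-positive colonic stromal cells of Il10ra ff and Il10ra ff; Pdgfra-cre mice were measured in 1 droplet library each with the 10x Genomics 5' v2 kit, per the labels. The authors deposited raw UMI counts per gene and barcode, made with Cell Ranger 8.0.1 on GRCm39, per the submitters' processing notes; further settings are not given in the sources used here. No deposited annotation of cells was used. The genes and lists were chosen with earlier results of these data known.

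Barcodes needed 500 genes or more, with mitochondrial UMIs at 10% or less (330 control and 214 Cre barcodes failed). Doublets called by Scrublet in scanpy 1.11.5 (expected rate 8%, 393 and 111 called) were removed. The filter can set the mitochondrial level, since it removes cells on it. A cell entered a gate with 3 of the gate's markers and 10 UMIs per 10000 from them, at least 2 times the next gate. Fibroblast-gated cells took the class of highest scaled marker score, with 2 markers and a margin of 0.25. Counts were summed over the cells of a class and library and divided by all their UMIs (CPM). Single log2 ratios added 1 CPM, and ratios without log did not. A gene was measured at a mean of 10 CPM and counted at 1.5-fold. Floors for 0 UMIs are 3 counts. Cells are not replicates and nothing separates the mice of a library, so no p-value is given. The summing and ratio steps were tested on simulated data with known folds.

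Named genes were all 13 mitochondrial genes, the 5 highest and 5 lowest measured nuclear genes and the 2 with most counts per complex, the restricted isoforms with their common partners, 3 highest and 3 lowest per other class, and 2 highest and 2 lowest per list with 6 genes named whatever their values. Other genes named (such as Cox6b1) were chosen after their values were seen, and some values that the rule would name are not reported here. Alternatives changed the filters, gates, class margin, depth band, weighting, centring and CPM minimum.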

Additional observations from a re-analysis of the deposited data

Results flagged for a closer look

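The mitochondrial sums of the fibroblast classes differed in direction between genotypes. Over all 13 genes the log2 ratio of Cre over control was 0.4848 in the subepithelial class and -0.0853 in trophocytes. Complex I genes gave 0.4517 and -0.1486 in the same 2 classes, complex IV genes 0.4434 and -0.0682, and complex V genes 0.4876 and -0.0688. For mt-Cytb of complex III the subepithelial value was 0.6415 and the lowest was -0.0828 in the Pi16 adventitial class. The difference between classes was not tested, since each rests on 1 library per genotype, and the trophocyte value over all 13 genes changed sign in 2 of the 3 bands of depth.

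Cells that passed no gate were used in no comparison. The 124 control cells summed to 31015 CPM of mitochondrial genes and the 144 Cre cells to 20768 CPM, both above the fibroblast-gated cells. Their median depths were 1151 and 1325.5 UMIs, and their nuclear respiratory chain genes stood at 14010 and 17014 CPM. Malat1, a nuclear RNA, stood at 16892 and 11092 CPM.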

How the results depend on the processing

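No paired analysis was possible because each genotype has 1 library, and for the same reason no replicate could be left out. All values here are log2 ratios of sums. The subepithelial and lamina propria mitochondrial excess and the nuclear deficit of pooled fibroblasts kept their direction under all 15 settings, at 0.28 to 0.54, 0.19 to 0.26 and -0.12 to -0.06. The pooled mitochondrial value (0.06) and those of the Pi16 adventitial class (-0.05) and trophocytes (-0.09) are small and did not keep theirs.

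With cells of 1000 to 5000 UMIs, chosen after seeing the data, the mitochondrial values were 0.18 pooled, 0.28 subepithelial, 0.19 lamina propria, 0.15 Pi16 adventitial and 0.10 trophocyte, the pooled nuclear value -0.064, and interstitial cells of Cajal over fibroblasts 1.21. With 5000 to 10000 UMIs they were 0.20 pooled, 0.54, 0.26, 0.13 and 0.10. With over 10000 UMIs, also chosen after seeing the data, they were -0.0017 pooled, 0.54 subepithelial, 0.013 Pi16 adventitial and -0.036 trophocyte, the pooled nuclear value -0.12 and smooth muscle nuclear genes over fibroblasts 0.46; interstitial cells were too few there to be computed. Centred on the median of all measured genes, they were 0.10 pooled, 0.43 subepithelial, 0.22 lamina propria, -0.0053 Pi16 adventitial and -0.059 trophocyte, with -0.070 for pooled nuclear genes, 0.49 for smooth muscle and 1.19 for interstitial cells. With each cell weighted alike they were 0.065 pooled, 0.42 subepithelial, 0.24 lamina propria and -0.069 trophocyte, with -0.10 for nuclear genes and 1.43 for interstitial cells, and with each class weighted alike 0.19 and -0.085 (nuclear). At most 5% mitochondrial UMIs gave 0.037 pooled, 0.42, 0.24, -0.061 and -0.10 in the 4 classes and 1.34 in interstitial cells, and no cap gave 0.51 in the subepithelial class. At least 1000 genes gave 0.063 pooled, 0.50 subepithelial and -0.033 Pi16 adventitial, and keeping doublets gave 0.46 subepithelial. A looser gate gave 0.045 pooled, 1.30 in interstitial cells and 0.47 in smooth muscle. A class margin of 1 gave 0.21 lamina propria, 0.011 Pi16 adventitial and -0.13 trophocyte. Without a CPM minimum 2 genes, Cox4i2 and Cox8b, passed 1.5-fold between genotypes, where none did with it. The cause of these shifts was not tested.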

Other observations

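In interstitial cells of Cajal genes of the tricarboxylic acid cycle, which feeds the respiratory chain, stood high as well. Of 17 measured tricarboxylic acid cycle genes 11 were at least 1.5-fold higher than in fibroblast-gated cells in both libraries and none lower, where 25.3% of all measured genes were higher. Their median log2 ratio was 0.81 (control) and 0.79 (Cre), against 0.45 and 0.54 for the nuclear respiratory chain genes. Of 44 measured assembly factors 12 were higher and none lower, and of 21 genes of mitochondrial gene expression 6 were higher and 1 lower, shares near that of all measured genes. Ppargc1a stood at 37.0 and 41.8 CPM there (8 and 12 UMIs), against 1.80 and 1.39 CPM in fibroblast-gated cells, and Ucp2 at 264 and 307 CPM against 27.1 and 12.7 CPM. Cytosolic ribosomal protein genes lay on the other side, with 73 of 80 lower, where 10.7% of all measured genes were, and none higher. In smooth muscle cells 7 of 17 tricarboxylic acid cycle genes and 12 of 27 glycolysis and hypoxia genes were higher in both libraries, where 12.8% of all measured genes were. Of the glycolysis and hypoxia genes 4 were lower, as were 12 of 80 ribosomal protein genes, where 10.7% of all measured genes were.

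Ucp2 was highest among the fibroblast classes in subepithelial cells, at 92.6 CPM in control and 53.1 CPM in Cre cells. Lamina propria cells, at 21.0 and 8.62 CPM, came next in the control library but lay below trophocytes in the Cre library. In Pi16 adventitial cells (3.70 and 4.63 CPM) and trophocytes (9.36 and 11.3 CPM) it was slightly higher in the Cre library. The pooled levels of 27.1 and 12.7 CPM also carry the class mix, with 1462 control and 510 Cre cells in the subepithelial class. Neither the part of the mix nor a link between Ucp2 and the mitochondrial genes was tested.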
